A study of Mus musculus with 30 samples.

Results

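The 10 genes described here encode the machinery that lets a platelet release the contents of its granules. They are the vesicle SNAREs Vamp8 and Vamp2, the target SNAREs Snap23, Stx11 and Stx4a, the SNARE regulators Stxbp2 and Unc13d, the small GTPases Rab27a and Rab27b, and Nbeal2, which is needed to make alpha-granules. They were chosen by name, and all 10 were found among the 54532 genes of the count tables. Platelets and peripheral blood mononuclear cells (PBMCs) were sequenced from female C57BL/6 mice that were 6 to 8 weeks old when the experiments began. Blood was drawn 14 days after a single injection under the skin of the right flank. C group received 100 μl of the salt solution HBSS alone, S group received a suboptimal 2000 B16F10 mouse melanoma cells and had no visible tumor at autopsy, and O group received an optimal 100000 B16F10 cells and bore tumors. Each group had 5 libraries per tissue, 30 libraries in all, and each library was a pool of 3 to 10 mice, so the spread between libraries is a spread between pools. In the study most mice given 2000 cells formed no visible tumor in the time they were watched, so S group pools can hold many such mice. O group pools, at 3 to 5 mice, were smaller than the platelet pools of the other groups. Those held 5 to 10 mice in C group and were listed at 10 mice each in S group.

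Granule release is a membrane fusion reaction. A vesicle SNARE on the granule pairs with target SNAREs on the plasma membrane, Munc18 and Munc13 proteins chaperone and prime that pairing, and Rab27 proteins bring granules to the membrane. Platelets keep adhesive proteins and growth factors in alpha-granules and small molecules such as ADP and serotonin in dense granules. Cytotoxic T cells and NK cells, which are mononuclear cells of the blood, use much of the same machinery, as do neutrophils and mast cells.

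On the GRCm38 assembly the target SNARE genes lie at chr2:120567671-120601255 (Snap23, plus strand), chr10:12938209-12964298 (Stx11, minus strand) and chr7:127824294-127849019 (Stx4a, plus strand). The vesicle SNARE genes lie at chr6:72385223-72390703 (Vamp8, minus strand) and chr11:69088490-69092384 (Vamp2, plus strand), and the regulators at chr8:3630955-3643644 (Stxbp2, plus strand) and chr11:116062095-116077961 (Unc13d, minus strand). The Rab genes lie at chr9:73044854-73097629 (Rab27a, plus strand) and chr18:69979131-70141605 (Rab27b, minus strand), and Nbeal2 at chr9:110624789-110654161 (minus strand). All 10 are protein coding, and counts were summed over their exons without regard to strand. Rab27a shares 149 exonic bases with Gm27186 and Nbeal2 22 with Mir8107.

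Total counts per library were 12259036 to 25360080 in platelets and 13390983 to 15973449 in PBMCs. Levels are given as CPM, the counts scaled to a common library total, after TMM scaling over all 30 libraries, and each of the 10 genes had at least 136 counts in every library. The summed level of 14 platelet and megakaryocyte markers was 17005 to 89368 CPM in platelet libraries and 595 to 7305 CPM in PBMC libraries. Leukocyte markers were present in the platelet libraries, with 8 B cell markers summing to 513 to 1971 CPM against 1180 to 2329 CPM in PBMCs, and the 12 hemoglobin genes took 4.02% to 39.0% of platelet counts. Platelet O group replicate 1 stood apart, with the 39.0% hemoglobin share and 5291 CPM of 10 neutrophil markers against 230 to 1089 CPM in the other platelet libraries.

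Levels of different genes were compared per kilobase of exon. In platelets Stx11 led with 394 ± 173 CPM per kilobase (mean ± SD, n = 15 libraries), Snap23 followed with 272 ± 118, and Unc13d came next with 62.9 ± 19.4. Stx11 was above Snap23 in 14 of 15 libraries although the gap between their means was within the SD. Stxbp2 (38.3 ± 10.5), Rab27b (29.8 ± 11.2), Stx4a (28.0 ± 5.34) and Vamp8 (25.6 ± 10.4 CPM per kilobase) formed a middle group in which no neighbor differed from the next by more than its SD. Vamp2 (12.2 ± 1.95), Rab27a (9.86 ± 2.00) and Nbeal2 (9.31 ± 1.96 CPM per kilobase) were lowest. In PBMCs the order was flatter and began with Vamp2 at 27.7 ± 3.53, Stx11 at 26.4 ± 6.46 and Stxbp2 at 26.0 ± 2.93 CPM per kilobase. Rab27b was last there at 1.77 ± 0.75 CPM per kilobase, below Rab27a in 15 of 15 PBMC libraries. A plasma membrane target SNARE was the most abundant of these transcripts in platelets, and the vesicle SNARE known from neurons was so in PBMCs, level with Stx11.

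**Figure D1:**
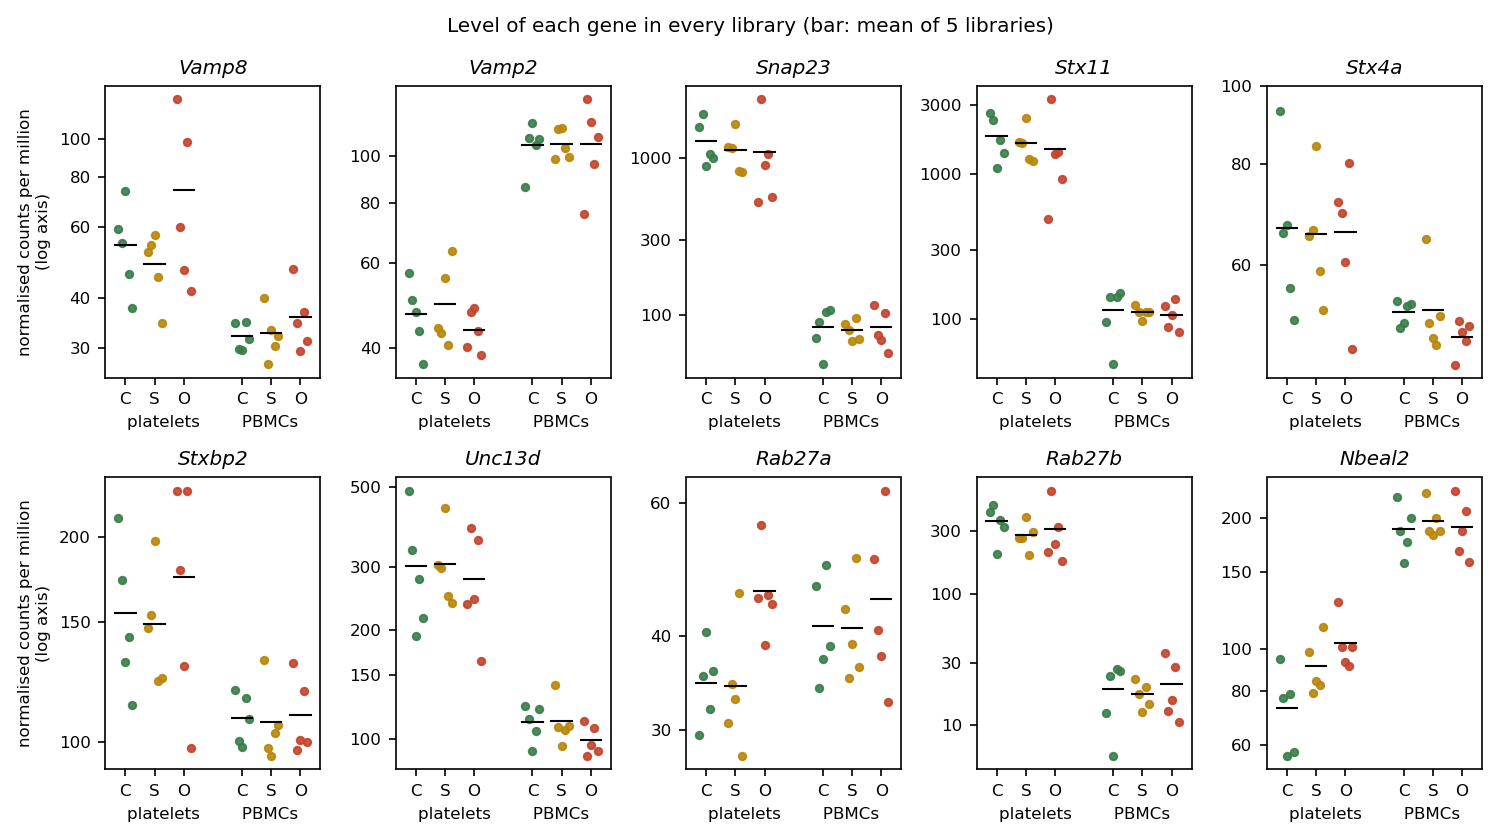
Level of each of the 10 genes in every library, as TMM-normalized CPM on a log axis; points are libraries, colors are C, S and O group, and bars are means of 5 libraries. Platelet and PBMC points do not overlap for Vamp2, Snap23, Stx11, Unc13d, Rab27b and Nbeal2, whereas within a tissue the points of all 3 groups overlap for every gene.

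Platelets and PBMCs were compared over all 30 libraries with group in the model (edgeR quasi-likelihood test, P adjusted over the 16498 genes tested). Of the 10 genes 9 passed an adjusted P of 0.05, 7 higher and 2 lower in platelets, where 81.0% of all genes tested passed, 35.8% higher and 45.2% lower. With so many genes different between the tissues, the count says little about these 10, and the sizes carry more. Their median log2 fold change was 0.68, against -0.17 over all genes tested. In such bulk libraries, fewer cells of a type and less RNA per cell cannot be told apart.

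The target SNAREs Stx11 and Snap23 stood furthest above PBMCs together with Rab27b. Stx11, which pairs with Snap23 and is mutated in a familial immune disease with impaired cytotoxic granule release, ranged from 488 to 3277 CPM in platelets, with a median of 1419, and from 48.4 to 151 CPM in PBMCs, with a median of 111. Every platelet library was above every PBMC library. Its log2 fold change was 3.90 (SE 0.22, adjusted P = 4.9e-16), or 14.9-fold. Snap23, the SNAP family member used outside neurons, ranged from 526 to 2369 CPM in platelets, with a median of 1066, and from 48.5 to 116 CPM in PBMCs, with a median of 80.1. Again the tissues did not overlap, and the log2 fold change was 3.81 (SE 0.20, adjusted P = 1.7e-16), or 14.1-fold. Stx4a, the target SNARE shared by many cell types, ranged from 47.3 to 93.0 CPM in platelets and from 45.2 to 64.7 CPM in PBMCs. Its tissues overlapped, 9 of 15 platelet libraries were above all PBMC libraries, and the log2 fold change was 0.36 (SE 0.08, adjusted P = 1.7e-04).

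The vesicle SNAREs went in opposite directions. Vamp8, the main granule SNARE of platelets, ranged from 34.7 to 125 CPM in platelets, with a median of 54.3, and from 27.3 to 47.3 CPM in PBMCs, with a median of 32.2, and 9 of 15 platelet libraries were above all PBMC libraries. Its log2 fold change was 0.80 (SE 0.13, adjusted P = 2.1e-06). Vamp2, best known from synaptic vesicles, ranged from 37.0 to 63.4 CPM in platelets and from 75.7 to 131 CPM in PBMCs, and the tissues did not overlap. It was 2.27-fold lower in platelets, a log2 fold change of -1.18 (SE 0.08, adjusted P = 4.2e-14).

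Of the regulators, Unc13d, the Munc13 protein that docks and primes granules, ranged from 165 to 487 CPM in platelets and from 89.9 to 141 CPM in PBMCs, without overlap. Its log2 fold change was 1.45 (SE 0.13, adjusted P = 5.8e-12), or 2.74-fold. Stxbp2, the Munc18 protein that chaperones Stx11, ranged from 97.9 to 234 CPM in platelets and from 95.3 to 132 CPM in PBMCs, with 9 of 15 platelet libraries above all PBMC libraries. Its log2 fold change was 0.55 (SE 0.11, adjusted P = 3.6e-05).

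The Rab27 genes differed from each other. Rab27b, the paralog that predominates in platelets, ranged from 177 to 613 CPM in platelets, with a median of 296, and from 5.85 to 35.6 CPM in PBMCs, with a median of 17.5. Its log2 fold change of 4.06 (SE 0.23, adjusted P = 7.0e-16), or 16.7-fold, was the largest among the 10. Rab27a, the paralog needed for melanosome transport and cytotoxic granule release, ranged from 27.7 to 56.0 CPM in platelets and from 32.7 to 62.2 CPM in PBMCs, and the tissues overlapped, with 4 platelet libraries below all PBMC libraries. Its log2 fold change of -0.16 did not pass (95% interval -0.35 to 0.03, adjusted P = 0.114). Nbeal2, whose loss causes gray platelet syndrome with absent alpha-granules, ranged from 56.7 to 128 CPM in platelets and from 157 to 231 CPM in PBMCs. It was 2.17-fold lower in platelets with no overlap, a log2 fold change of -1.12 (SE 0.09, adjusted P = 1.5e-12).

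The 250 bases before the start site are shown for Snap23 and Stx11, the target SNAREs far above PBMCs, and for Nbeal2, which was below them. RefSeq promoter entries (GRCm38.p6) were matched for 7 of the 10 genes. Their start sites are RefSeq's, so the Stx11 window overlaps the first bases of the gene span given above, and the windows counted for Vamp8 and Stxbp2 overlap theirs, while those of Stx4a and 1 of 2 for Rab27a lie inside them. In the sequences capitals mark CG dinucleotides.
Snap23, chr2:120567421-120567670, plus strand: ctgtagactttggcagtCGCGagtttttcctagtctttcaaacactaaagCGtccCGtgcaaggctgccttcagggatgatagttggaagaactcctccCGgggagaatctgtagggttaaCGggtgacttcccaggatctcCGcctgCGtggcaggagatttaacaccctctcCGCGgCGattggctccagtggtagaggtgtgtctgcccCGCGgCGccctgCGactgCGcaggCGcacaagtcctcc
Stx11, chr10:12964260-12964509, minus strand: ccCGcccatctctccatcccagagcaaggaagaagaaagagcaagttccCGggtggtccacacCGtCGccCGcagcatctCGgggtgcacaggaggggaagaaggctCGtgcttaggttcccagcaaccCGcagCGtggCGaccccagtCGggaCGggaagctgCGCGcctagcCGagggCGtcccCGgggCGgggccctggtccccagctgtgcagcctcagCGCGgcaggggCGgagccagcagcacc
Nbeal2, chr9:110654162-110654411, minus strand: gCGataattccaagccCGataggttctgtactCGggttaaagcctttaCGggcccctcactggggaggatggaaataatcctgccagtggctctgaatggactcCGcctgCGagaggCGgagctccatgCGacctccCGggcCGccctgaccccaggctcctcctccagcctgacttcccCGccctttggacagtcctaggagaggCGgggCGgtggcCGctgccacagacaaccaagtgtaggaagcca
Snap23 holds 17 CG dinucleotides, Stx11 21 and Nbeal2 14, where the median of 32851 such windows is 6, and the GC content is 58.4%, 70.0% and 62.4% against a median of 52.4%. Vamp8, with 3 CG dinucleotides and 43.6%, and 1 of the 2 Rab27a windows, with 5 and 51.6%, are below both medians. Both strands were searched for 4 motifs of blood cell transcription factors. The erythroid and megakaryocyte factor motif AGATAA is held by 9.99% of all windows. For the ETS motif CCGGAAG the share is 6.91%. The RUNX motif TGTGGT is held by 14.0% of them. For the NF-E2 motif TGAGTCA the share is 4.46%. The 8 windows of the 7 genes held 1 match, a RUNX motif 140 bases before a start site of Rab27a.

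The direction of the smaller differences depended on how libraries were scaled, because TMM factors were 0.386 to 1.01 in platelets and 0.932 to 1.77 in PBMCs. With total counts alone, a scaling chosen after seeing the data, the median of all genes tested moved from -0.17 to -1.38, and Vamp8 (-0.47), Stx4a (-0.90) and Stxbp2 (-0.72) turned lower in platelets. With total counts that left out the hemoglobin genes the median was -1.24, and these 3 genes stood at -0.32, -0.76 and -0.59. Unc13d was no longer past the threshold with total counts alone (log2 fold change 0.17, adjusted P = 0.165). It did pass with the hemoglobin genes left out (0.30, adjusted P = 0.00219). Rab27a became lower in platelets with total counts alone (-1.35). Snap23 (2.56), Stx11 (2.64) and Rab27b (2.83) remained higher and Vamp2 (-2.42) and Nbeal2 (-2.34) lower under total counts. Relative to the median of all genes, the differences changed little, from 3.98 to 3.94 for Snap23 and from -0.95 to -0.97 for Nbeal2.

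**Figure D2:**
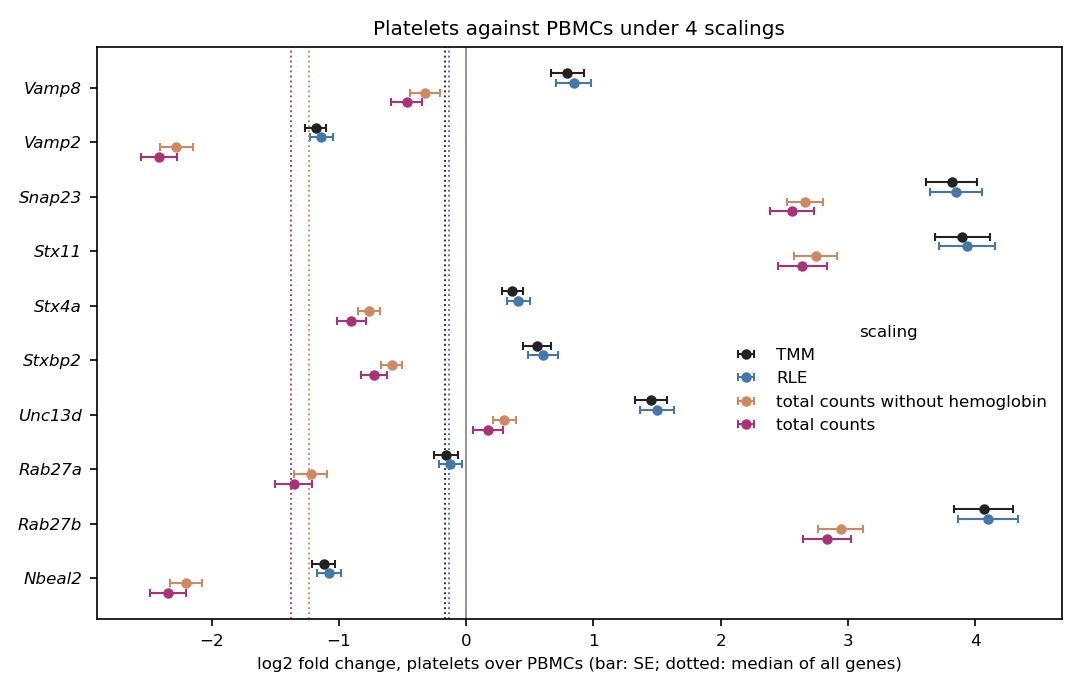
Log2 fold change of each gene in platelets over PBMCs under 4 scalings of the libraries, with bars for the standard error and dotted lines for the median of all genes tested. Vamp8, Stx4a and Stxbp2 are above 0 with TMM and RLE factors and below 0 with total counts, while Snap23, Stx11 and Rab27b stay above 2.5 throughout.

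Shares within a protein family need no scaling between libraries, so each gene was also set against its relatives as a percentage of the family's counts per kilobase. Of the Rab27 pair, Rab27b made up 73.6% ± 8.23 (SD, n = 15) in platelets, from 59.4% to 83.9%, and 13.7% ± 4.35 in PBMCs, from 5.39% to 20.4%. Snap23 made up 87.6% ± 3.72 of Snap23, Snap25, Snap29 and Snap47 in platelets and 61.5% ± 5.80 in PBMCs. Stx11 made up 88.7% ± 5.65 of the plasma membrane syntaxins Stx2, Stx3, Stx4a and Stx11 in platelets and 47.6% ± 6.78 in PBMCs, where Stx4a held 40.4% ± 5.86 against 7.29% ± 3.39 in platelets. These 3 families had no overlap between the tissues for Rab27b, Snap23 and Stx11.

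Among 6 VAMP genes the makeup of the tissues also differed. Vamp7, another VAMP gene, had no gene ID matched to its name and is not in these shares. Vamp2 held 40.1% ± 4.06 in PBMCs and 16.1% ± 3.47 in platelets, whereas Vamp8 held 31.9% ± 6.93 in platelets and 21.1% ± 3.43 in PBMCs. In platelets the largest mean share of the 6 was that of Vamp3, a SNARE of recycling endosomes and of some granules, at 37.4% ± 4.58. Its range over libraries, 25.1% to 43.2%, overlapped that of Vamp8, 22.9% to 50.9%. The regulators were the main form of their families in both tissues, with Unc13d at 99.4% ± 0.20 and 98.5% ± 0.18 of the 4 Munc13 genes and Stxbp2 at 85.9% ± 4.41 and 81.7% ± 3.25 of the 3 Munc18 genes in platelets and PBMCs. Nbeal2 held 58.6% ± 4.78 and 66.5% ± 2.86 of the 5 BEACH genes counted. The Rab27 effector Sytl4, which is not among the 10 genes, held 95.8% ± 2.08 of the 5 synaptotagmin-like genes in platelets and 38.4% ± 9.19 in PBMCs.

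**Figure D3:**
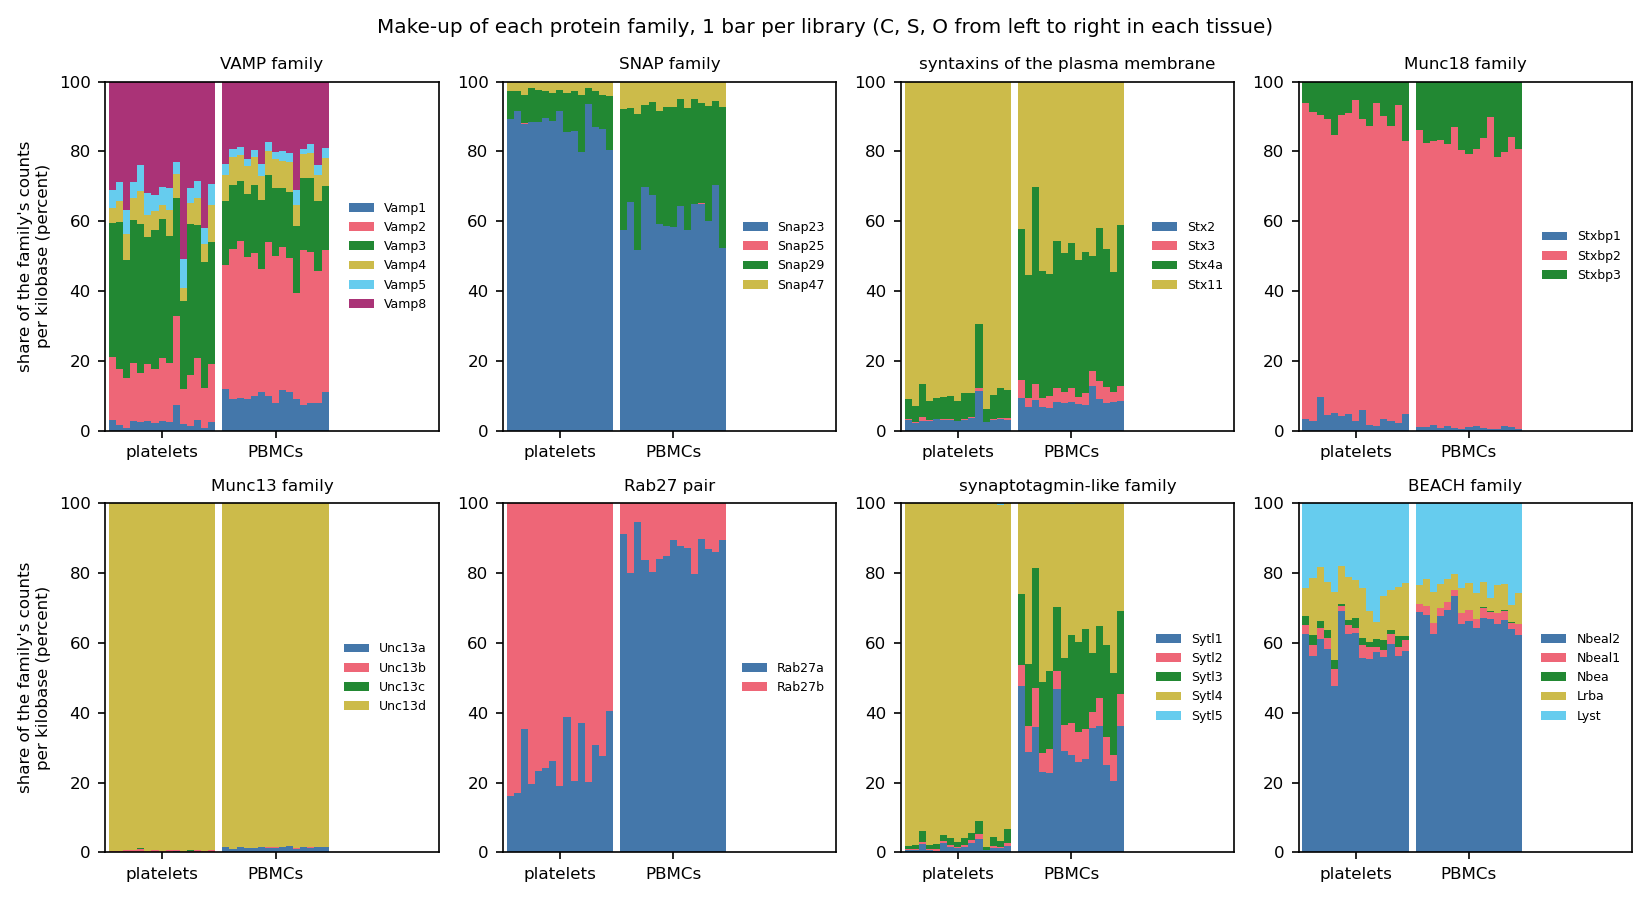
Share of each gene in its family's counts per kilobase (percent), with 1 stacked bar per library and C, S and O group from left to right in each tissue. Rab27b holds 59.4% to 83.9% of the Rab27 pair in platelets and 5.39% to 20.4% in PBMCs, and Stx11 and Snap23 hold larger shares in platelets than in PBMCs.

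The PBMC levels of the 3 genes with the largest tissue differences followed the level of platelet marker genes in the same library. A platelet marker score (mean log2 CPM of the platelet and megakaryocyte markers) was compared with each gene over 15 PBMC libraries, among 30 such relations tested. For Rab27b, Pearson's r was 0.977 and Spearman's rho was 1.000 (permutation test, adjusted P = 7.5e-05 and 1.0e-04), and r was 0.964 without the 2 libraries farthest from the median score. For Snap23, r was 0.945 and rho 0.932, with r of 0.914 without those 2 libraries, and for Stx11, r was 0.858 and rho 0.893, with r of 0.919. These 2 genes had adjusted permutation P values of 7.5e-05 and 1.8e-04 for r. Within groups, after removing each group's mean, r was 0.984 for Rab27b, 0.963 for Snap23 and 0.895 for Stx11.

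The lowest PBMC values of all 3 genes, 5.85 CPM of Rab27b, 48.5 CPM of Snap23 and 48.4 CPM of Stx11, were in C group replicate 3, which had the lowest platelet marker sum of 595 CPM. The highest Rab27b and Snap23 values, 35.6 and 116 CPM, were in O group replicate 1, which had the highest marker sum of 7305 CPM. Stx4a showed no such relation (r = -0.187, rho = -0.193, adjusted permutation P = 0.580 for r). For Vamp2 r was -0.559 (adjusted permutation P = 0.0687) and fell in size to -0.200 without the 2 farthest libraries, so it rested on them. Stxbp2 (r = 0.613) and Nbeal2 (r = 0.627) had adjusted permutation P values of 0.0431 and 0.0397, and r was 0.435 and 0.320 without the farthest libraries. Rab27a (r = 0.589) and Vamp8 (r = 0.576) had adjusted permutation P values of 0.0560 and 0.0666, and r was 0.583 and 0.218 without those libraries. The gene and the score come from the same library and share its scaling. Which cells the PBMC counts came from was not tested.

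**Figure D4:**
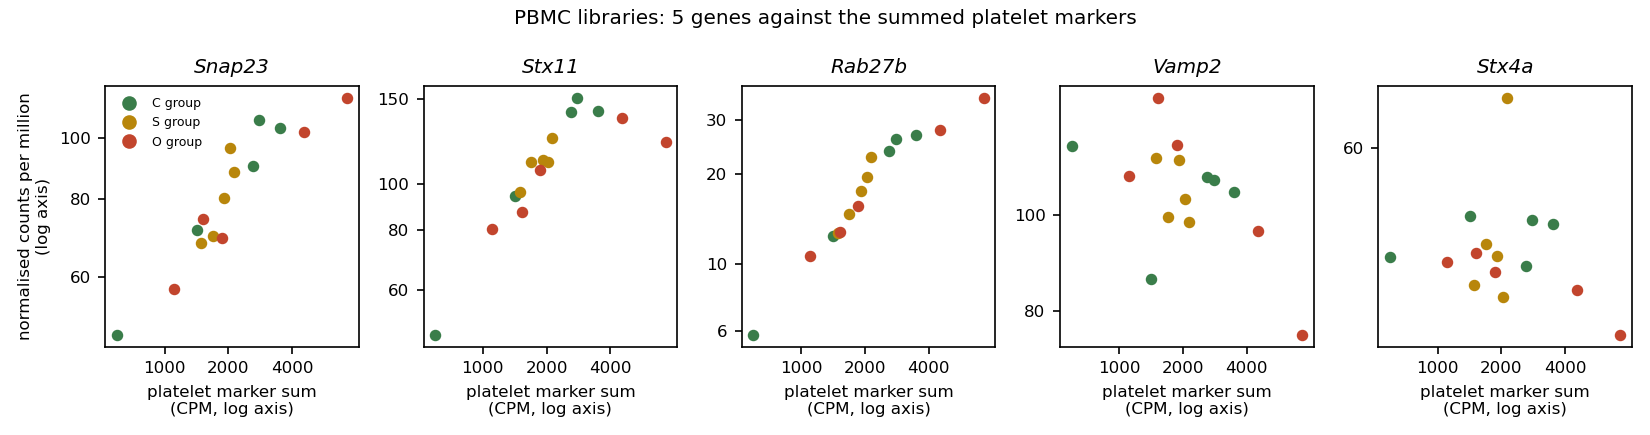
Level of 5 genes in the 15 PBMC libraries (CPM, log axis) against the summed level of 14 platelet and megakaryocyte markers (CPM, log axis), colored by group. Snap23, Stx11 and Rab27b climb with the marker sum from C group replicate 3 at 595 CPM, and Vamp2 and Stx4a do not.

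Some of the genes varied together over the libraries of a tissue. In platelets 5 of 45 pairs had r above 0.8 on the log2 scale, with a median of 0.34, and in PBMCs 5 of 45 did, with a median of 0.50. Snap23 and Stx11 were the closest platelet pair (r = 0.953, rho = 0.964), followed by Snap23 and Rab27b (r = 0.897), Stx4a and Stxbp2 (r = 0.883), Stx11 and Rab27b (r = 0.838) and Stx4a and Unc13d (r = 0.817). These correlations are descriptions over libraries that share their scaling. The most opposed pair was Rab27a and Vamp2 in platelets (r = -0.518) and Vamp2 and Stxbp2 in PBMCs (r = -0.818).

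Over the 15 platelet libraries, r with the platelet marker score was highest for both regulators and the target SNARE Stx4a, at 0.922 for Stxbp2, 0.891 for Unc13d and 0.840 for Stx4a (rho 0.871, 0.850 and 0.761), each with an adjusted permutation P of 7.5e-05, 7.5e-05 and 2.5e-04 for r. Without the 2 libraries farthest from the median score, r was 0.873, 0.874 and 0.764. For Rab27b r was 0.727 (rho 0.786, adjusted permutation P = 0.0106), and for Snap23 r was 0.644 (rho 0.679, adjusted permutation P = 0.0350). For Stx11 r was 0.506 and rho 0.721 (adjusted permutation P = 0.101 and 0.0123). Rab27a (r = 0.0522) and Nbeal2 (r = 0.207) had adjusted permutation P values of 0.948 and 0.575. None of the 10 genes passed an adjusted P of 0.05 against the leukocyte marker score in platelets, where r ran from -0.485 for Rab27a to 0.521 for Vamp2 (adjusted permutation P = 0.119 and 0.0932). Without the 2 libraries farthest from the median leukocyte score, r was 0.614 for Vamp8, 0.627 for Stx4a and 0.502 for Stxbp2, against -0.011, 0.138 and 0.027 with them.

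Genes whose platelet profile was most like 3 of the members were sought among 7742 genes with a mean of at least 10 CPM. For Vamp8 they were Chchd7 (r = 0.977), Ifitm2 (r = 0.967) and Ndufb7 (r = 0.964). For Rab27b they were Scamp1 (r = 0.980), Mfap3l (r = 0.980) and Lims1 (r = 0.974), and for Unc13d they were Trappc9 (r = 0.988), Srxn1 (r = 0.988) and F11r (r = 0.984), all over 15 libraries.

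Platelets of S group, taken when no tumor could be seen, were compared with those of C group. Most mice in the S group pools may never have formed a tumor. None of the 10 passed an unadjusted P of 0.05, where 6.42% of 13268 genes tested did, and none passed an adjusted P of 0.05, where 0.00754% did (edgeR quasi-likelihood test). Log2 fold changes ran from -0.29 for Rab27b to 0.37 for Nbeal2, with a median of -0.01 against -0.01 over all genes. Nbeal2 came closest, with 94.6, 77.1, 56.7, 78.5 and 57.9 CPM in C group and 98.2, 78.9, 84.3, 82.3 and 112 CPM in S group. Only 2 S group libraries were above all C group libraries, and the 95% interval was -0.01 to 0.74 (unadjusted P = 0.0579, adjusted P = 0.769). Without C group replicate 1 it was 0.47 (unadjusted P = 0.0127, adjusted P = 0.357). At an unadjusted P of 0.05, 4 of 8 B cell and 3 of 9 T cell markers were higher in S group. Nbeal2 was at 0.19 once a leukocyte score (mean log2 CPM of the B cell, T cell, NK cell, neutrophil and monocyte markers) was added to the model (unadjusted P = 0.319). The intervals of the 3 most abundant genes, Stx11 (-0.70 to 0.46), Snap23 (-0.71 to 0.39) and Unc13d (-0.47 to 0.59), left room for differences of either sign.

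In platelets of O group against C group, 2 of 10 genes passed an unadjusted P of 0.05, where 4.79% of 13270 genes tested did, and none passed the adjusted threshold, as was so for all genes (0%). Nbeal2 was 1.37-fold higher in O group, a log2 fold change of 0.46 (SE 0.19, unadjusted P = 0.0329, adjusted P = 0.910). Its O group libraries read 128, 101, 93.0, 91.0 and 101 CPM, 3 of them above every C group library. Rab27a read 29.5, 35.3, 40.4, 32.0 and 36.0 CPM in C group and 44.9, 56.0, 38.8, 45.4 and 44.0 CPM in O group. Here 4 of 5 O group libraries were above every C group library, and the fold was 1.27, a log2 fold change of 0.35 (SE 0.15, unadjusted P = 0.0386, adjusted P = 0.910).

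The sizes of both differences held better than the calls when single libraries were left out. Nbeal2 missed the unadjusted threshold without C group replicate 3, C group replicate 5 or O group replicate 1, with log2 fold changes of 0.33 to 0.40 (unadjusted P of 0.0674 to 0.0838). Rab27a missed it when any of 6 libraries was left out, C group replicates 1, 2, 4 and 5 and O group replicates 2 and 4, with log2 fold changes of 0.30 to 0.36 (unadjusted P of 0.0558 to 0.0851). Rab27a also missed it with the replicate block (0.35, unadjusted P = 0.0587) and with no filter on low counts (0.36, unadjusted P = 0.0564). Of 9 neutrophil markers tested 4 were higher in O group at an unadjusted P of 0.05 with none lower, their sum being 530 to 5291 CPM in O group and 230 to 1089 CPM in C group. The part of these cells in the result was not tested.

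The abundant target SNAREs varied more within O group than between groups. Stx11 read 488, 3277, 1370, 1419 and 929 CPM in O group and 2621, 2374, 1094, 1720 and 1394 CPM in C group. The lowest and the highest of these 10 values were both O group libraries, replicates 1 and 2. Snap23 had the same 2 extremes, at 526 and 2369 CPM. Without O group replicate 2, the estimates were -0.77 for Snap23 and -0.84 for Stx11 (unadjusted P = 0.0374 and 0.0491, adjusted P = 0.614 and 0.625), against -0.31 and -0.37 with it (unadjusted P = 0.449 and 0.414). Vamp8 read 125, 60.2, 46.9, 97.8 and 41.6 CPM in O group and 59.6, 54.8, 73.8, 45.9 and 37.7 CPM in C group, and was not past the threshold (log2 fold change 0.41, unadjusted P = 0.231). Without O group replicate 1 the Vamp8 estimate was 0.097 (unadjusted P = 0.727).

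In platelets of S group against O group, 1 of 10 genes passed an unadjusted P of 0.05, where 13.9% of 13306 genes tested did, and none passed the adjusted threshold (0% of all genes). Rab27a read 30.6, 34.6, 32.9, 45.5 and 27.7 CPM in S group, and 4 of 5 were below every O group library. It was 1.27-fold lower in S group (log2 fold change -0.35, SE 0.16, unadjusted P = 0.0470, adjusted P = 0.356). The call was lost when any of 7 libraries was left out, S group replicates 1, 2, 3 and 5 and O group replicates 1, 2 and 4, at log2 fold changes of -0.37 to -0.29 (unadjusted P of 0.0503 to 0.104). It was also lost with the replicate block (-0.36, unadjusted P = 0.0751), with no filter on low counts (-0.36, unadjusted P = 0.0734) and with the leukocyte score as covariate (-0.27, unadjusted P = 0.132). Here 6 of 8 B cell and 7 of 9 T cell markers were higher in S group at an unadjusted P of 0.05, and 6 of 9 neutrophil markers were lower. Vamp8 was at -0.55 (95% interval -1.20 to 0.10, unadjusted P = 0.0908), and without O group replicate 5 it was at -0.71 (unadjusted P = 0.0336, adjusted P = 0.275), and without O group replicate 1 at -0.26 (unadjusted P = 0.283). The comparisons with C group and with S group share the O group libraries, so the Rab27a values in them are not independent.

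**Figure D5:**
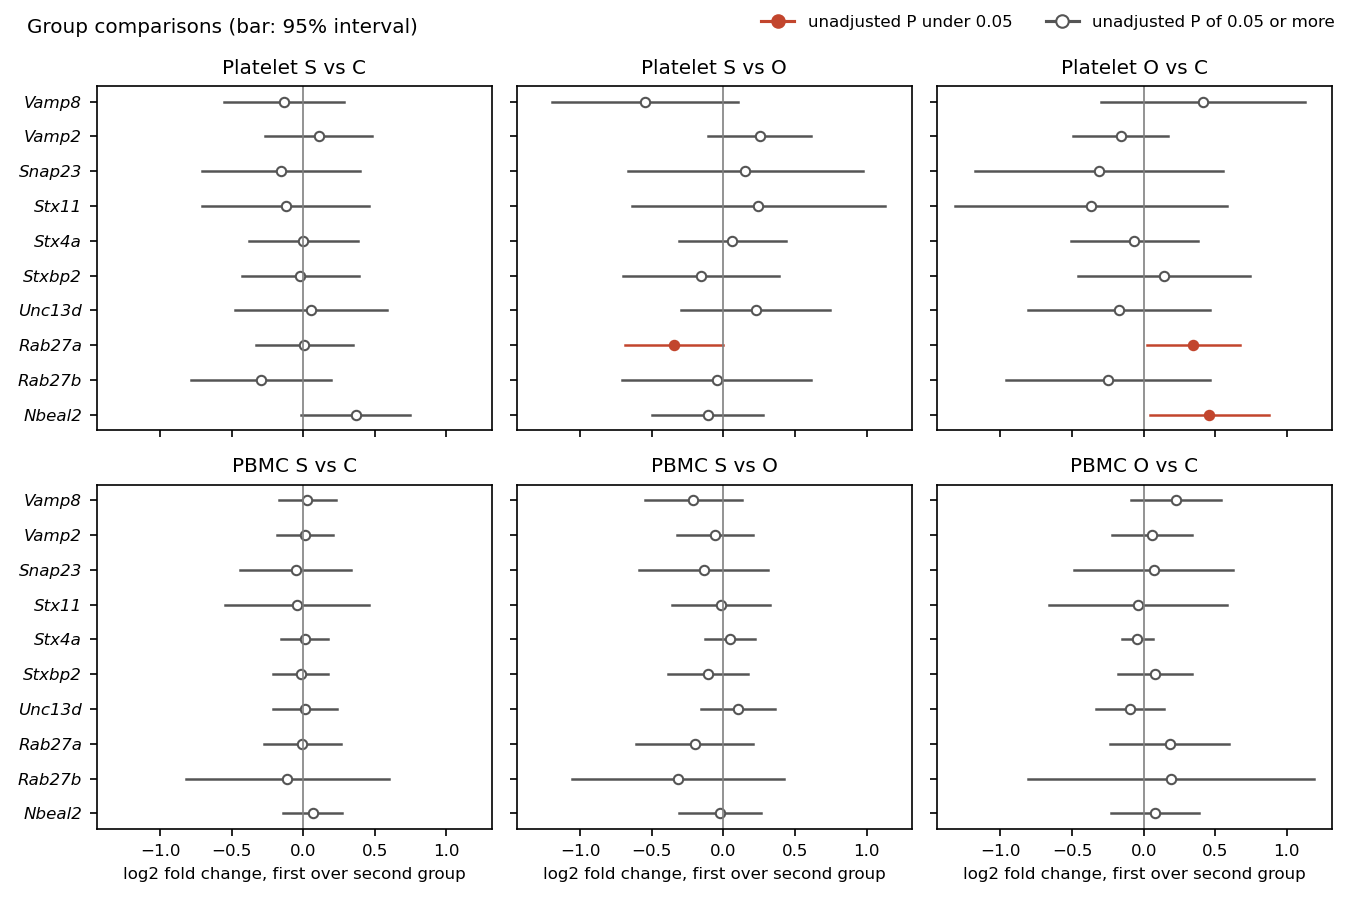
Log2 fold changes of the 10 genes between groups, first named over second, with bars for the 95% interval; filled red points have an unadjusted P under 0.05. Rab27a in S vs O and O vs C platelets and Nbeal2 in O vs C platelets are the filled points, and no PBMC point is filled.

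In PBMCs none of the 10 genes passed an unadjusted P of 0.05 in S group against C group, S group against O group or O group against C group, where 2.64%, 12.2% and 11.9% of all genes tested did, and none passed an adjusted P of 0.05 (0.0330%, 0% and 0% of all genes). Between S group and C group the estimates ran from -0.11 to 0.07, and all 10 were within their standard errors in the fit without a replicate block. The Stx4a interval, -0.15 to 0.18, was the narrowest of them, and the Rab27b interval, -0.82 to 0.60, was the widest. Vamp8 had the smallest unadjusted P in O group against C group (log2 fold change 0.23, unadjusted P = 0.138) and in S group against O group (-0.21, unadjusted P = 0.199). Its highest PBMC value, 47.3 CPM, was in O group replicate 1, which also had 3988 CPM of neutrophil markers and 7305 CPM of platelet markers, and the part of either in that value was not tested. Without that library the Vamp8 estimates were 0.078 for O group against C group and -0.060 for S group against O group (unadjusted P = 0.429 and 0.618).

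Whether the groups moved differently in the 2 tissues was tested with an interaction term over all 30 libraries. For O group against C group, 1 of 10 genes passed an unadjusted P of 0.05, where 6.59% of 16498 genes tested did. For Nbeal2 the log2 fold change of O group over C group was larger in platelets than in PBMCs by 0.48 (95% interval 0.06 to 0.91, unadjusted P = 0.0281, adjusted P = 0.685), and without platelet O group replicate 1 this was 0.24 (unadjusted P = 0.295). It was also lost with RLE size factors, with DESeq2 and with no filter on low counts (unadjusted P of 0.125, 0.117 and 0.179), and when any of 7 other libraries was left out, platelet C group replicates 3 and 5, platelet S group replicate 3, platelet O group replicate 5, and PBMC C group replicate 1 and O group replicates 2 and 5 (unadjusted P of 0.0517 to 0.217). In the interactions of S group against C group and S group against O group none passed, where 5.38% and 13.6% of all genes did. The Nbeal2 estimate for S group against C group was 0.26. Without platelet C group replicate 1 it was 0.46 (unadjusted P = 0.0360, adjusted P = 0.467). Rab27a, which differed between groups in platelets at an unadjusted P of 0.05, had interaction estimates of 0.29 for O group against C group and -0.29 for S group against O group (unadjusted P = 0.212 and 0.205), so a difference between the tissues was not shown for it. These estimates moved to 0.17 and -0.15 with RLE factors and to 0.15 and -0.085 with no filter on low counts. With single libraries left out they ran from 0.11 to 0.44 and from -0.44 to -0.082, and the second passed without PBMC O group replicate 4 (unadjusted P = 0.0486, adjusted P = 0.403).

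Other genes of the pathway were taken from 3 lists. Of 48 other SNAREs and SNARE regulators, 38 could be tested between the tissues, and 24 were higher and 10 lower in platelets (adjusted P of 0.05), 89.5% against 81.0% of all genes. Stx7, an endosomal SNARE, was 2.18 higher on the log2 scale (285 ± 96.8 against 62.8 ± 4.21 CPM), Snap29 was 1.43 higher and Vamp1 was 1.81 lower (-1.81). Of 41 Rab27 effectors and related Rab proteins, 16 were higher and 12 lower among 35 tested, 80% and so near the share of all genes. Sytl4, also called granuphilin, had 376 ± 165 CPM in platelets against 22.1 ± 7.97 CPM in PBMCs, a log2 fold change of 4.08 (SE 0.24) beside the 4.06 of Rab27b. Of 39 granule biogenesis and content genes, 19 were higher and 12 lower among 38 tested, 81.6% and likewise near that share. Srgn, the core protein of the granule proteoglycan serglycin, was 2.83 higher, and Hps3 and Hps5, subunits of a complex that builds lysosome-related organelles, were at -1.50 and -1.25.

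Between groups in platelets, 1, 2 and 1 of the other SNAREs passed an unadjusted P of 0.05 in S vs C, S vs O and O vs C, with 37, 36 and 36 tested, and 1, 7 and 1 of 35 Rab27 effectors and Rabs did. Of 37 granule biogenesis genes 1, 4 and 2 did, and none of the 3 lists held a gene past an adjusted P of 0.05. These are 2.70%, 5.56% and 2.78% of the SNAREs, 2.86%, 20% and 2.86% of the Rab27 list and 2.70%, 10.8% and 5.41% of the granule list, against 6.42%, 13.9% and 4.79% of all genes tested. Lyst, a BEACH protein like Nbeal2 whose loss gives giant granules, was 0.71 higher in O group than in C group (88.1 ± 28.8 against 53.0 ± 13.4 CPM, unadjusted P = 0.0176, adjusted P = 0.910). Rab32, a GTPase of lysosome-related organelles, was 0.73 higher in O group than in C group (26.1 ± 7.67 against 15.2 ± 3.90 CPM, unadjusted P = 0.0142, adjusted P = 0.910). Vps41, a subunit of the endosomal HOPS complex, was lower in S group than in C group (30.1 ± 3.95 against 41.2 ± 4.31 CPM, log2 fold change -0.42, unadjusted P = 0.00984, adjusted P = 0.746).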

How the data were processed

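Poly-A RNA of pooled platelets and PBMCs was sequenced from non-stranded libraries, and the authors deposited raw counts per gene, made with HISAT2 2.0.5 and featureCounts 1.5.0-p3 on a build named mm9 in the submitters' processing notes. Gene positions here are GRCm38, matched by gene ID, and promoters are from RefSeq GRCm38.p6. Platelet samples carry a PBMC cell type tag, so tissue was taken from titles. Pool sizes are those of the labels, and the study's methods list 9 and 11 mice for 2 platelet S group pools.

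The deposited counts were tested with edgeR 4.0.16 in R 4.3.3 (filterByExpr, TMM, quasi-likelihood test, Benjamini-Hochberg adjustment). Each pair of groups was fitted on its 10 libraries, the tissues and the interactions on all 30 libraries. Group CPM use factors over 30 libraries and fold changes use those of their own fit, so their ratios differ slightly. Libraries are pools, so P values measure the spread between pools. Intervals are 95% from the t distribution. Correlations used log2(CPM + 1) and 100000 permutations, with adjusted P over 30 relations. Shares within families used counts per kilobase of exon. Members and lists were chosen with earlier results of these data known. Named genes were all 10 members, the 2 pathway genes per direction with the smallest P between tissues, the pathway gene per direction with the smallest P between groups, and the 3 genes most like Vamp8, Rab27b and Unc13d, of which a selection is given.

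Alternatives were DESeq2 1.42.0, RLE factors, no filter, all 3 groups in one fit, a replicate block, a leukocyte score as covariate, each library left out, and 2 scalings by total counts added after seeing the data. Replicate numbers paired libraries in PBMC S vs C, where every same-numbered pair deviated together (r of 0.280 to 0.568). They also did between the tissues of O group (r of 0.108 to 0.685) but not of C or S group. PBMCs came from the blood left after platelet isolation, so libraries of both tissues can share mice. The tissue and interaction models treat these pools as unrelated unless blocked. On data simulated from Platelet O vs C, with 13270 genes, 16 of 98 changes of log2 size 1 and 75 of 94 of size 2 were recovered at an adjusted P of 0.05.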

Additional observations from a re-analysis of the deposited data

Results flagged for a closer look

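In 4 of 60 groups of 5 libraries the highest library stood apart from the others by Dixon's criterion at the 95% level, which chance alone passes in about 1 in 20 groups. In 3 of them it was PBMC S group replicate 1. Stx4a was 64.7 CPM there, with the next library at 51.9 and the lowest at 47.9 CPM. Stxbp2 was 132 CPM, with the next at 106 and the lowest at 95.3 CPM. Unc13d was 141 CPM, with the next at 109 and the lowest at 95.6 CPM. The fourth was Nbeal2 in platelet O group replicate 1, at 128 CPM with the next at 101 and the lowest at 91.0 CPM, the library with the highest hemoglobin share and neutrophil marker sum.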

How the results depend on the processing

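No gene of the 10 passed an adjusted P of 0.05 between groups under any setting, and each of the 4 calls at an unadjusted P of 0.05 was lost when some single library was left out. With the replicate block 0 genes passed in platelet S vs O and 1 in O vs C, Rab27a being lost in both (unadjusted P of 0.0751 and 0.0587), and the block changed no other call, with 9 genes past the threshold between tissues and 1 in the O vs C interaction. Same-numbered platelet libraries had correlations of both signs in S vs O, from -0.278 to 0.289. In O vs C they were 0.430, 0.571, 0.208, -0.156 and 0.386 for replicates 1 to 5. Whether replicate numbers pair these libraries was not tested against differently numbered ones. With no filter the counts were also 0 and 1, and with the leukocyte score 0 in S vs O. In the O vs C interaction 0 passed with RLE factors, no filter or DESeq2. Leaving out each library gave 0 to 1 genes in platelet S vs C, 0 to 2 in S vs O, 0 to 3 in O vs C, 0 to 1 in each interaction and 9 to 10 between tissues, where Rab27a was called without PBMC O group replicate 5 (-0.20, adjusted P = 0.0410).

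Between tissues Vamp8, Stx4a and Stxbp2 reversed with total counts (-0.47, -0.90 and -0.72) and with total counts without hemoglobin (-0.32, -0.76 and -0.59), which shift all genes down. Without platelet O group replicate 1 the S vs O interactions of Vamp8 and Nbeal2 turned to 0.021 and 0.075, their ranges over single libraries left out being -0.60 to 0.021 and -0.31 to 0.075. The cause was not tested for the other changes. Of the single-gene values, 569 of the leave-one-out results kept direction and call, a call that most often was none. Another 24 lost a call, 5 gained one and 2 reversed. Under other alternatives 146 kept direction and call, 9 lost a call, 2 gained one and 6 reversed. In simulations with 5 pools a group, changes of log2 size 1 were recovered for 16 of 98 genes in platelet O vs C, 18 of 97 in S vs O and 44 of 99 in S vs C, and for 75 of 97 in PBMC S vs C.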
